A study of Mus musculus with 4 samples.

Results

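The genes of collagens and other extracellular matrix proteins were examined in whole transcriptome start site sequencing (WTSS-seq) of mouse skeletal muscle. The list held 48 gene symbols, and a gene was included when its symbol was attached to a site in the count table. Of these, 43 had at least 1 site and together held 431 of the 42207 sites in the table, which covered 9838 genes. The 5 symbols with no site were Col5a3, Col18a1, Postn, Tnxb and Eln, and these were counted as not detected. Of the list, 2 genes encode no matrix protein. Col4a3bp is the symbol of a ceramide transfer protein and not of a collagen chain, and Pdgfra encodes a receptor tyrosine kinase that marks the fibroblast lineage of muscle.

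The samples were total RNA of skeletal muscle of adult mice, which the study took from the gastrocnemius. KO mice carried a deletion in Prkaa2, the gene of the AMPKα2 catalytic subunit of AMP-activated protein kinase, in all tissues, and the deleted part covers a section of the catalytic domain. WT mice were wild-type controls without the deletion. Each genotype was represented by 2 libraries (n = 2), made from 2 KO mice and 2 WT mice per the study's text, so that p-values measure the spread between animals and libraries together.

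The extracellular matrix is the scaffold between cells. Fibrillar collagens form cables that carry tension and are bound by small proteoglycans. Beaded collagens such as type VI link those cables to the basement membrane around each muscle fibre, and network collagens such as type IV form its sheet. Glycoproteins such as fibronectin and fibrillin connect the scaffold to cell surface receptors and growth factors. In muscle, most of this matrix is made by fibroblasts and tendon cells between the fibres rather than by the fibres themselves. In a bulk sample, fewer cells of a type and less RNA per cell cannot be told apart.

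Library totals were 2900279 and 2303294 reads in KO against 1300069 and 1568945 in WT, so both KO libraries were deeper. Reads at member sites numbered 14712 and 9107 in KO against 8765 and 9288 in WT. As a share of the reads outside mitochondrial genes and 18S ribosomal RNA these were 0.801% and 0.628% in KO against 1.07% and 1.02% in WT, and the groups did not overlap. Counts of genes below were divided by size factors (normalised read count). Counts of sites are given as reads where so named, which are higher in the deeper KO libraries, and as normalised read counts elsewhere. A site with 3 reads or fewer in a library was not told from 0. Prkaa2 itself had normalised read counts of 149 and 183 in KO against 153 and 186 in WT over its 19 sites. The deletion was therefore not visible in the sum of its sites, 2 of which were at 0 reads in both KO libraries and 3 of which were at 0 in both WT libraries. The muscle label was checked on fibre genes, and all 10 fibre markers listed, among them Acta1, Ckm and Myh4, passed the filter on low counts, none was called, and their summed normalised read count was 27369 and 39063 in KO against 26305 and 44589 in WT.

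Reads of the matrix genes began inside the annotated genes far more often than at their 5′ ends. Sites contained in an annotated transcript made up 55.2% of the 431 member sites (238), sites inside an intron 28.8% (124), sites spanning an exon and an intron 9.28% (40) and other exonic overlaps 3.94% (17). The remainder were 11 sites antisense to an exon and 1 just outside a gene. Over all sites of the table, the intronic share was 49.8%. Of the 41872 member reads, 0.573% began within 100 bases of the annotated gene start, at 5 sites of 5 genes, whereas 29.3% began in the last 10% of the gene span. The 10 member sites with most reads held 43.1% of all member reads. A member's count therefore rests on a few internal positions, and counts of different genes are not compared here as levels per length.

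**Figure D1:**
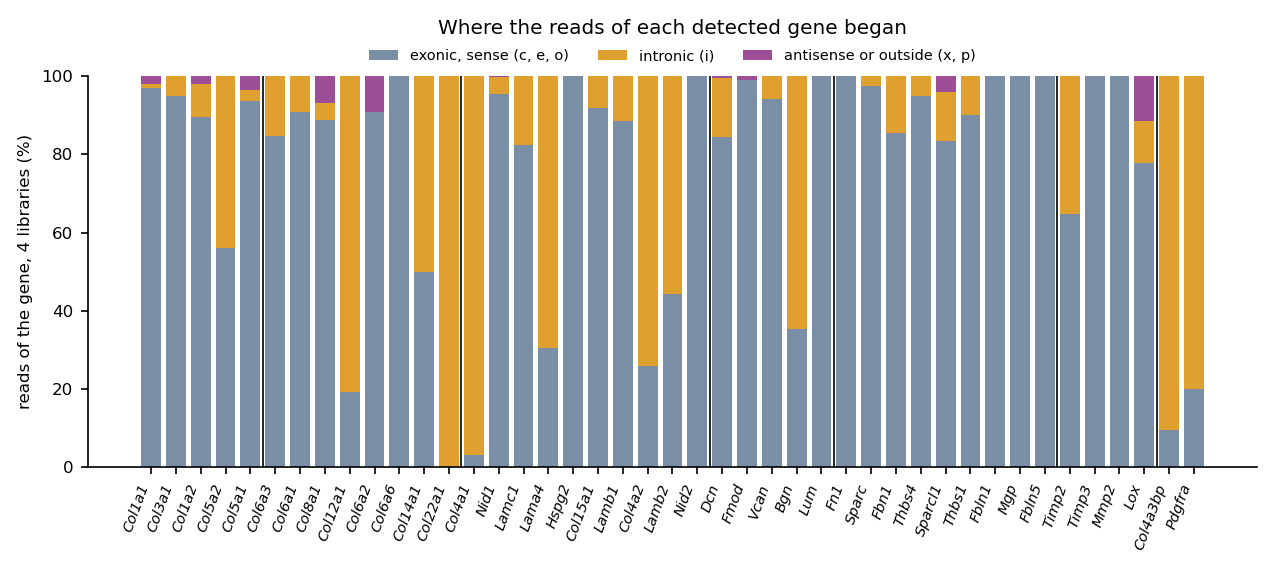
Share of reads by kind of start site for each of the 43 detected genes, grouped by role from fibrillar collagens on the left to genes that encode no matrix protein on the right (vertical lines). Each bar sums the reads of all 4 libraries to 100%; exonic sense sites, intronic sites and antisense or outside sites are stacked, and in 9 genes, Col4a1 and Col12a1 among them, over 50% of the reads were intronic.

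The RefSeq table of promoters (GRCm38.p6, 250 bases before to 50 after each annotated start) held windows for 30 of the 48 genes, and a member site lay inside its own gene's window in 3 of them, Col6a1, Col4a1 and Pdgfra. Col6a1, a chain of the beaded collagen VI of the fibre surface, is shown because its window site held the most reads of the 3. The stretch is chr10:76726015-76726094, minus strand, printed 5′ to 3′ from 50 bases before to 30 after the start, and the capitals mark bases 21 to 30 after the start, which are the part of the site at positions 76726006 to 76726024 that falls in this stretch.
Col6a1: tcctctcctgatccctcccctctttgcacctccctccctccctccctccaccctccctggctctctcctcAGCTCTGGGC
At this site there were 3 and 22 reads in KO against 17 and 19 in WT, which was 7.20% of the reads of Col6a1. KO replicate 1 was at the floor of 3 reads. In the Col4a1 window (chr8:11312777-11313076, minus strand), the exonic site at 11312775 to 11312810 held 4 and 13 reads in KO against 0 and 1 in WT. The intronic site in the window of Pdgfra held 5 and 9 reads in KO against 3 and 1 in WT. These counts are small, and none of the 3 sites was called.

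Most matrix genes had lower counts in KO than in WT, with small differences that the tests of single genes did not separate from the replicate spread. Of the 43 detected genes, 35 passed the filter on low counts, and 31 of them had a log2 fold change (KO over WT) below 0, against 49.5% of all 4688 genes tested. The median log2 fold change was −0.49 over the 35 genes and 0.01 over all genes. Both KO libraries lay below both WT libraries in 17 of the 35 genes (48.6%), a pattern found in 19.4% of all genes, and both lay above in 1 gene, Col12a1, against 22% of all genes. With an adjusted p-value under 0.1 in the Wald test of DESeq2, 1 gene was called lower in KO (Sparc) and 1 higher (Col12a1), whereas 2.67% of all genes tested were called, 0.96% lower and 1.71% higher. At an unadjusted p under 0.05 there were 5 genes, namely Sparc, Col12a1, Thbs1, Col6a3 and Col3a1, or 14.3% of the 35, against 9.77% of all genes tested. By the quasi-likelihood test of edgeR 0 of the members were called, against 0.883% of all 6115 genes tested by it. Summed over the list, the normalised read count was 8987 and 7958 in KO against 12291 and 11568 in WT. The 8 detected genes that did not pass the filter were Mgp, Fbln5, Col22a1, Col14a1, Nid2, Lum, Lamb2 and Col4a2.

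**Figure D2:**
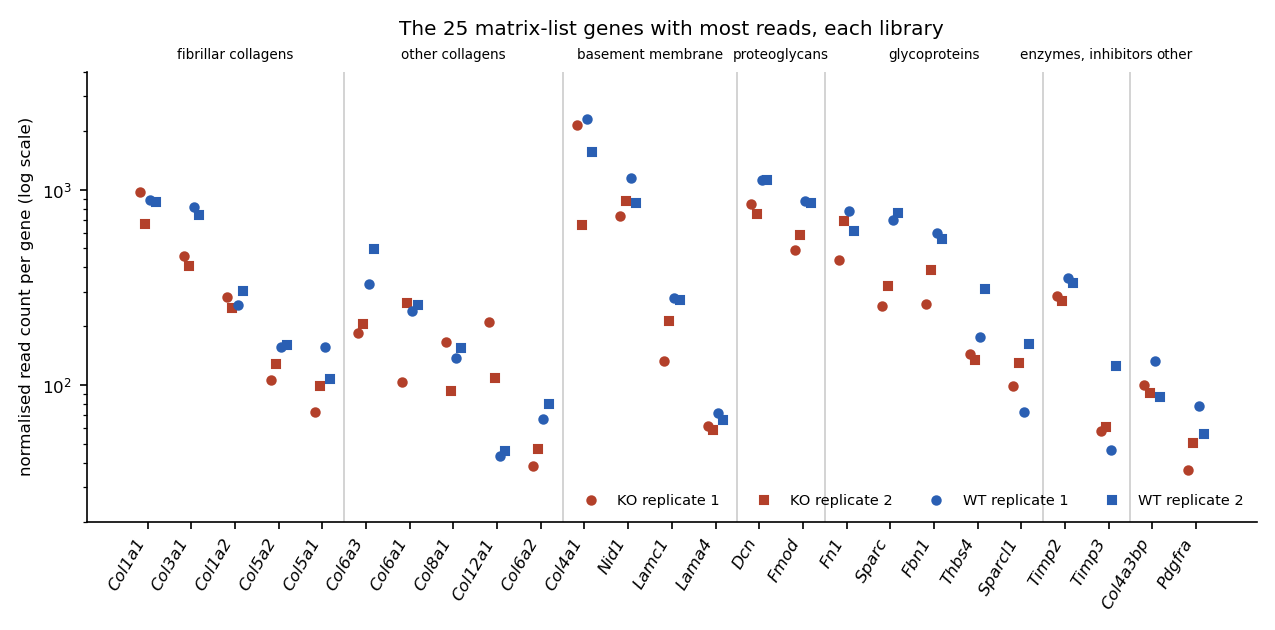
Normalised read count per gene (log scale, not scaled by gene length) in each library for the 25 genes of the list with most reads, grouped by role; red marks stand for KO and blue for WT, circles for replicate 1 and squares for replicate 2. Sparc, Col3a1, Fmod, Dcn and Fbn1 show both red marks below both blue marks, and Col12a1 shows both above.

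The 5 detected fibrillar collagen genes all had log2 fold changes below 0, with a median of −0.44, and 0 were called. Col3a1 (chr1:45311538-45349706), the chain of type III collagen that is abundant in elastic connective tissue, had normalised read counts of 455 and 408 in KO against 815 and 744 in WT. The groups did not overlap, and its log2 fold change was −0.85 (SE 0.41, unadjusted p = 0.040, adjusted p = 0.47). Of its 12 sites that passed the filter on low counts, 11 had a log2 fold change below 0. Its most-read site, contained in the transcript (chr1:45347216-45347273), had normalised read counts of 136 and 85.4 in KO and 209 and 195 in WT, a log2 fold change of −0.87 (SE 0.65). By contrast, the chains of type I collagen, the main fibre of tendon and bone, had nearly equal summed counts. In Col1a1 that sum included a site that was high in KO replicate 1, described below. Col1a1 (chr11:94936224-94953042) had 975 and 666 in KO against 888 and 863 in WT, a log2 fold change of −0.09 (SE 0.42). Col1a2 (chr6:4505618-4541543) had 282 and 248 in KO against 258 and 301 in WT, a log2 fold change of −0.08 (SE 0.46). The KO and WT libraries overlapped in both genes, and the 95% intervals ran from −0.92 to 0.74 and from −0.97 to 0.82. Of the tested sites, 9 of 12 in Col1a1 and 4 of 10 in Col1a2 had a log2 fold change below 0. Type V collagen sits in the core of type I fibres and sets their width. Its chain Col5a2 had 106 and 128 in KO against 156 and 161 in WT, and Col5a1 had 72.7 and 98.7 in KO against 156 and 107 in WT. Both had KO libraries below the WT libraries, with log2 fold changes of −0.44 (SE 0.52) and −0.62 (SE 0.57).

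The sites of Col1a1 were also looked at singly, and a change in their usage within the gene was not called (adjusted p = 0.64 by the Simes method and 0.35 by the F test of edgeR). Its most-read site (chr11:94950283-94950523) had normalised read counts of 297 and 318 in KO against 394 and 315 in WT, a log2 fold change of −0.21 (SE 0.58). Another exonic site near the 3′ end (chr11:94952674-94952726, 98.0% along the gene) had 675 and 94 reads in KO against 43 and 53 in WT. Most of that excess came from KO replicate 1, in which this site held 42.3% of the gene's reads, against 12.3% in KO replicate 2 and 6.79% and 7.65% in WT. It was named after its values were seen, and its log2 fold change of 2.13 (SE 0.81, adjusted p = 0.18) did not pass the threshold. After normalisation this site had 443 and 81.1 in KO against 58.4 and 61.2 in WT. It is part of the nearly equal sum of Col1a1 given above. The gene was not fitted without it, so whether the sum stays nearly equal without this site was not tested. For Col1a2 the most-read site (chr6:4537809-4537865) had normalised read counts of 125 and 54.4 in KO against 93.6 and 121 in WT, and the groups overlapped.

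Among the collagens of fibril surfaces and other networks, 6 genes were tested, 5 had log2 fold changes below 0, and the median was −0.61. Col6a3 (chr1:90766860-90844001), the long chain of collagen VI, had 184 and 204 in KO against 328 and 499 in WT. Its log2 fold change was −1.09 (SE 0.47, unadjusted p = 0.020, adjusted p = 0.32), and 11 of its 12 tested sites lay below 0. Col6a2 had 38.5 and 47.2 in KO against 67.3 and 79.7 in WT, at −0.78 (SE 0.66). The groups did not overlap in these 2 chains. Col6a1, the partner chain shown above, had 103 and 263 in KO against 240 and 257 in WT, so that KO replicate 2 lay with the WT libraries, and its log2 fold change was −0.44 (SE 0.55). Col8a1, a short-chain collagen of vessel walls, had 167 and 93.5 in KO against 137 and 154 in WT and overlapped between the groups, at −0.16 (SE 0.55). The lowest fitted value of these collagens was −1.46 (SE 0.93) for Col6a6, whose groups overlapped.

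Of all member sites, 1 was called lower in KO, and it belonged to Col6a3. The site (chr1:90779146-90779239, minus strand, contained in the transcript and 84.0% along the gene) had 0 and 3 reads in KO against 22 and 52 in WT. After normalisation the WT to KO ratio of the summed reads was 41.3, with an exact 95% counting interval of 13.6 to 205 that covers counting error only. The adjusted p was 0.018 by DESeq2 and 0.12 by edgeR, and the call was lost without either KO library or without WT replicate 2. The most-read site of Col6a3 (chr1:90768425-90768480) was less uneven, with 31 and 60 reads in KO against 25 and 26 in WT. After normalisation KO replicate 1 was the lowest and KO replicate 2 the highest library, with a log2 fold change of 0.17 (SE 0.96). A further exonic site of Col6a3, given under other observations, held reads in WT only.

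Col12a1 (chr9:79598987-79721141), whose product bridges collagen I fibrils in tendon and muscle, was the DE-gene up-regulated in KO, and a single intronic site made the difference. The gene had 210 and 109 in KO against 43.5 and 46.1 in WT, a log2 fold change of 1.84 (SE 0.61, adjusted p = 0.099), and edgeR gave an adjusted p of 0.21. The site (chr9:79610017-79610043, minus strand) spans 27 bases of an intron, 91.0% along the gene, and had 314 and 81 reads in KO against 7 and 4 in WT. It was a DE-ASS with a log2 fold change of 4.30 (SE 0.93, adjusted p = 7.28e-04), the adjusted p by edgeR was 0.090, and the site was the only member DE-ASS up-regulated in KO. It held 91.3% and 64.8% of the reads of Col12a1 in KO against 22.6% and 10.8% in WT. Without it the log2 fold change of the gene was −0.41, and on exonic sense sites alone it was −0.59. The call of the gene was also lost without any 1 of the libraries and with TMM factors, and that of the site without KO replicate 1. The exonic site with most reads (chr9:79630573-79630626) had 9 and 5 reads in KO against 13 and 13 in WT, or 5.91 and 4.31 against 17.6 and 15.0 after normalisation.

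**Figure D3:**
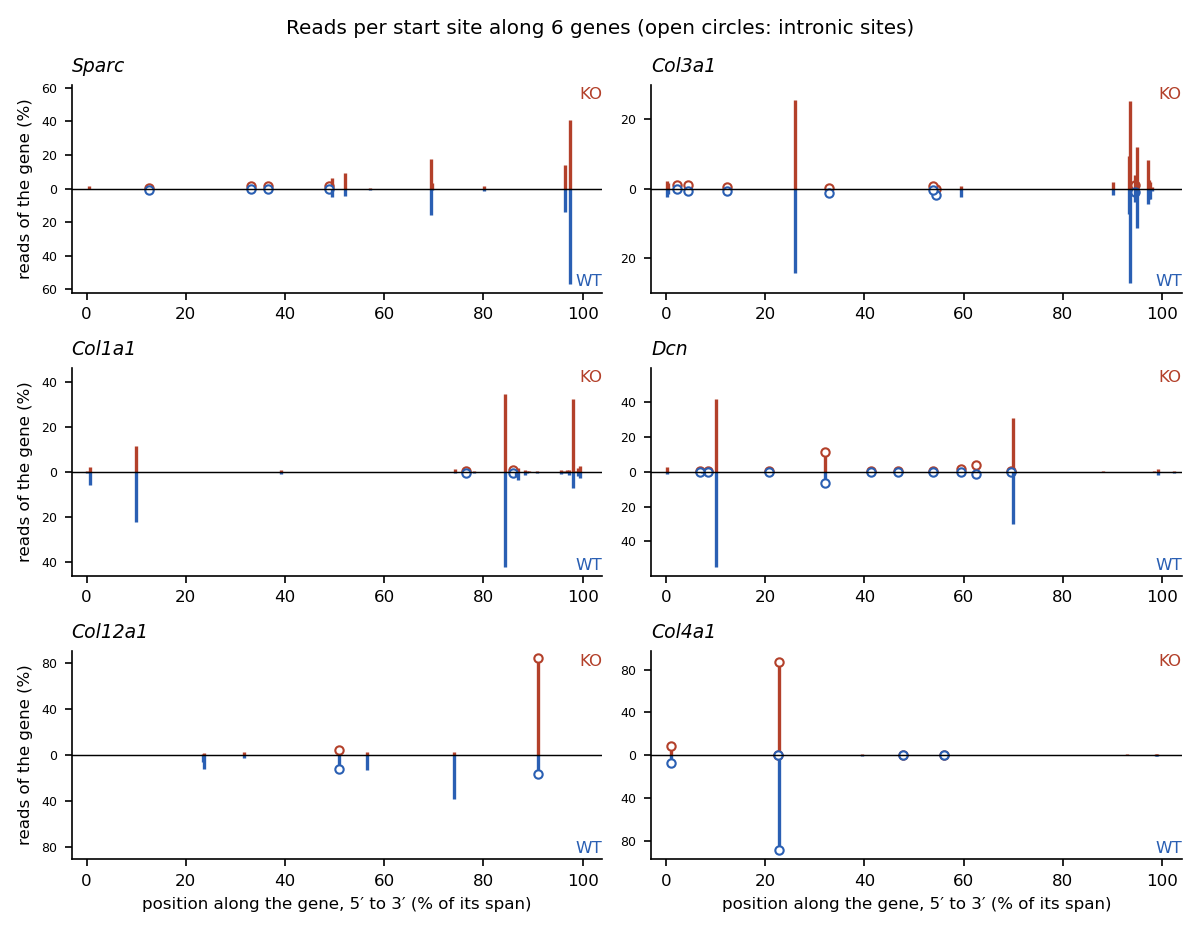
Percent of each gene's reads that began at each site, by the site's position along the gene (0% is the 5′ end and 100% the 3′ end), for 6 genes; upward red lines are KO, downward blue lines are WT, each with the reads of its 2 libraries summed, and open circles mark intronic sites. The intronic site at 91.0% of Col12a1 takes most of the reads in KO, while Col4a1 has its intronic peak at 22.7% in both genotypes and Sparc its highest site at 97.5%.

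All 7 tested basement membrane genes had log2 fold changes below 0, with a median of −0.46, and 0 were called. Col4a1 (chr8:11198423-11312889), the main chain of the collagen IV sheet, had 2138 and 655 in KO against 2291 and 1557 in WT. KO replicate 1 lay within the WT range and KO replicate 2 below it, and the log2 fold change was −0.46 (SE 0.54). The count described an intron more than the transcript, since 96.8% of its reads were intronic and a 25-base site (chr8:11286857-11286881, minus strand) held 87.8% of them, with normalised read counts of 2034 and 528 in KO against 2033 and 1221 in WT. Col4a2 is transcribed from the opposite strand next to Col4a1 and makes the partner chain. It was close to the floor, with 10 and 7 reads in KO against 11 and 26 in WT, and did not pass the filter on low counts.

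Nid1 (chr13:13437602-13512275), the nidogen that ties laminin to collagen IV, had 736 and 875 in KO against 1151 and 853 in WT, which gave −0.32 (SE 0.42) and overlapping groups. Its most-read site at the 3′ end (chr13:13511786-13511835) had normalised read counts of 463 and 515 in KO against 661 and 381 in WT, a log2 fold change of −0.09 (SE 0.59). Lamc1, the γ1 chain of most laminins, had 133 and 212 in KO against 279 and 272 in WT, at −0.67 (SE 0.49). Both KO libraries of Lamc1 lay below both WT libraries. Lama4, a laminin chain of vessels and nerve, had 61.7 and 58.5 in KO against 71.5 and 66.0 in WT and also did not overlap, at −0.19 (SE 0.64). Among the other tested genes, Lamb1, Hspg2 and Col15a1 ranged from −1.40 (SE 0.92) for Lamb1 to −0.02 (SE 0.82) for Col15a1.

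Of the 4 tested proteoglycan genes, the 3 with lower counts in KO had non-overlapping groups, a pattern found in 19.4% of all genes tested. The median was −0.59, but 0 were called. Decorin and fibromodulin bind collagen fibrils and limit their lateral growth. Dcn (chr10:97479500-97518163) had 843 and 752 in KO against 1118 and 1121 in WT, a log2 fold change of −0.49 (SE 0.40, adjusted p = 0.87). Fmod (chr1:134037254-134048280) had 489 and 589 in KO against 872 and 858 in WT, at −0.68 (SE 0.41, adjusted p = 0.67). The WT libraries were close together in both genes, while the KO libraries spread more. The most-read site of Dcn (chr10:97483293-97483488) had 537 and 401 reads in KO against 416 and 517 in WT, which after normalisation were 352 and 346 against 565 and 597. That of Fmod (chr1:134040346-134040707) had 536 and 451 reads in KO against 446 and 454 in WT, or 352 and 389 against 605 and 524 after normalisation. Vcan, a large proteoglycan of loose matrix, had a log2 fold change of −1.03 (SE 0.68) on 206 reads. Bgn, the relative of decorin, was at 0.30 (SE 0.82) with overlapping groups.

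Sparc (chr11:55394159-55420080), a matricellular glycoprotein that binds collagen and aids its assembly, was the DE-gene down-regulated in KO. Its normalised read count was 252 and 322 in KO against 700 and 763 in WT, or 287 ± 49.0 against 732 ± 45.1 (SD, n = 2). The groups did not overlap, and the log2 fold change was −1.35 (SE 0.43, adjusted p = 0.074 by DESeq2). By edgeR the unadjusted p was 0.0090 and the adjusted p 0.25. All 5 of its tested sites lay below 0, from −1.72 to −0.04. Its most-read site, contained in the transcript near the 3′ end (chr11:55394788-55394986, minus strand), had 180 and 141 reads in KO against 291 and 344 in WT although the KO libraries were deeper, a log2 fold change of −1.72 (SE 0.59, adjusted p = 0.10). On exonic sense sites alone the gene was at −1.41 with an adjusted p of 0.14, and leaving out any 1 of the 4 libraries also ended the call.

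The other tested genes of fibronectin, elastic fibres and matricellular proteins were 6, of which 5 had log2 fold changes below 0, and the median with Sparc was −0.80. The gene above 0 was Fbln1, with 34.8 and 61.2 in KO against 42.1 and 18.7 in WT, at 0.66 (SE 0.82) and with overlapping groups. Fbn1 (chr2:125300594-125506485), the fibrillin of microfibrils, had 260 and 390 in KO against 599 and 562 in WT. Its groups did not overlap, its log2 fold change was −0.84 (SE 0.45, unadjusted p = 0.060), and 12 of its 13 tested sites lay below 0. The most-read site of Fbn1 (chr2:125505483-125505549), 964 bases from the annotated start, had normalised read counts of 108 and 178 in KO against 224 and 147 in WT, and the groups overlapped. Thbs4, a thrombospondin of tendon and muscle matrix, had 144 and 134 in KO against 175 and 309 in WT, at −0.80 (SE 0.52), with no overlap. Fn1 (chr1:71585473-71653280), fibronectin, had 437 and 690 in KO against 780 and 617 in WT, at −0.31 (SE 0.45). Sparcl1, the relative of Sparc, had 99.0 and 129 in KO against 72.9 and 162 in WT, at −0.04 (SE 0.60). Fn1 and Sparcl1 thus overlapped between the groups. The most-read site of Fn1 (chr1:71590830-71590906) had normalised read counts of 164 and 230 in KO against 278 and 133 in WT, and the groups overlapped. Thbs1, an inhibitor of blood vessel growth named for its unadjusted p after its values were seen, had 28.7 and 12.2 in KO against 25.2 and 152 in WT, at −2.11 (SE 0.88, adjusted p = 0.29). WT replicate 2 alone was high, and 107 of its 122 reads began at a single site (chr2:118127011-118127037), which had 26 and 5 reads in KO against 3 in WT replicate 1.

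Of the enzymes and inhibitors of the matrix, 3 of 4 tested genes had log2 fold changes below 0, with a median of −0.42, and 0 were called. Timp2 (chr11:118301061-118355411), an inhibitor of matrix metalloproteases, had 285 and 269 in KO against 352 and 333 in WT, at −0.31 (SE 0.44), and the groups did not overlap. Its most-read site (chr11:118320181-118320230) had normalised read counts of 102 and 113 in KO against 128 and 148 in WT, at −0.36 (SE 0.66). Timp3 had 58.0 and 61.2 in KO against 46.3 and 126 in WT, at −0.53 (SE 0.68), with WT replicate 1 below both KO libraries. Lox, which cross-links collagen and elastin, was at −0.78 (SE 0.76), and Mmp2, a gelatinase, at 0.29 (SE 0.76). The 2 genes of the list that encode no matrix protein were also tested. Col4a3bp had 99.6 and 90.9 in KO against 133 and 87.2 in WT, a log2 fold change of −0.21 (SE 0.57), and 90.5% of its reads were intronic. Pdgfra had 36.7 and 50.7 in KO against 78.5 and 56.0 in WT, at −0.63 (SE 0.68), with both KO libraries below both WT libraries.

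**Figure D4:**
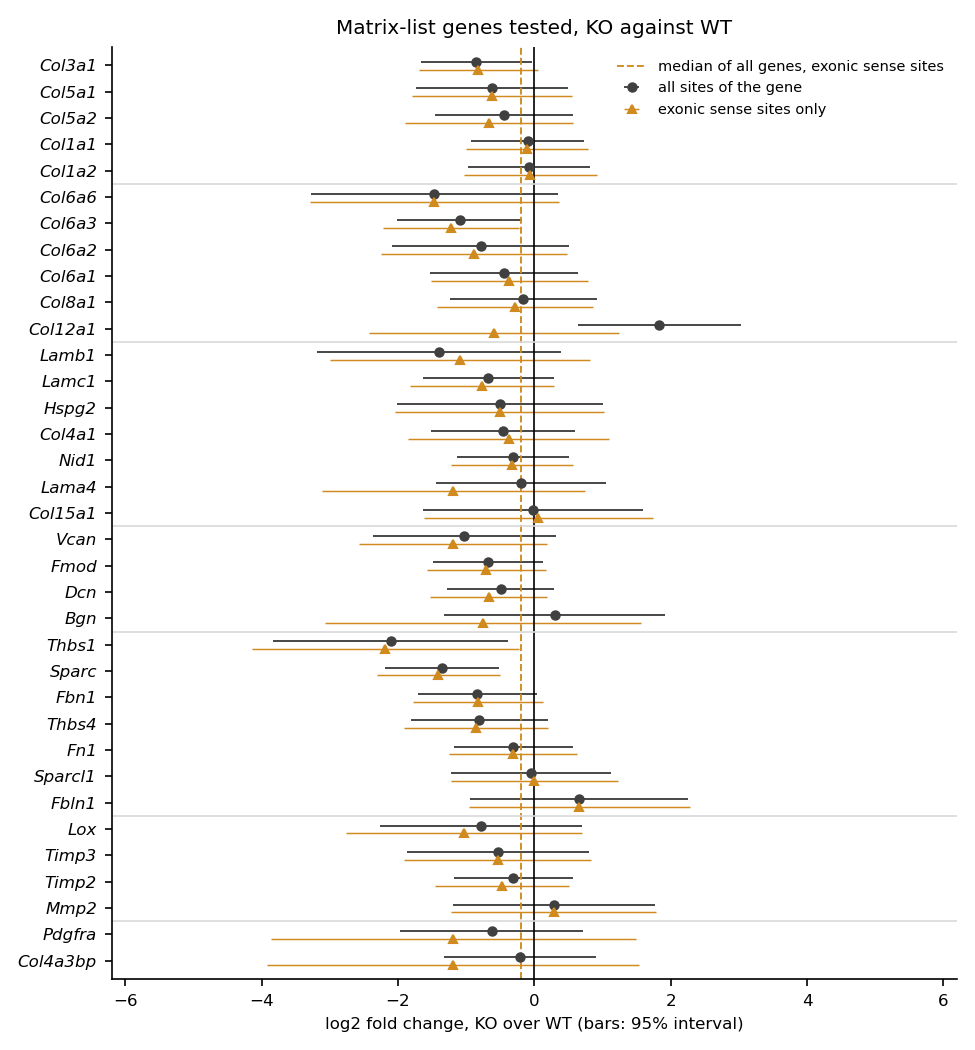
Log2 fold change (KO over WT) of the 35 tested genes, with bars for the 95% interval, from all sites (dark circles) and from exonic sense sites (orange triangles), in blocks by role from fibrillar collagens at the top to genes that encode no matrix protein at the bottom. The dashed line is the median of all genes on exonic sense sites, −0.20; most points lie to the left of 0, most bars cross 0, and Col12a1 lies on opposite sides of 0 by the 2 counts.

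The counts were split by kind of site, for all genes as well as for the list. On exonic sense sites, the normalised read count summed over the list was 5802 and 6412 in KO against 9024 and 9213 in WT, with no overlap. On intronic sites it was 3129 and 1467 in KO against 3214 and 2297 in WT, where KO replicate 1 lay within the WT range. Counted on exonic sense sites, 31 of 35 genes were below 0 with a median of −0.67, while the median of all genes of the main test on the same count was −0.20. Of the 35 members that passed the filter on low counts there, 0 were called, against 1.24% of the 4037 genes that passed it, 63.2% of which were below 0. Counted on intronic sites, 15 of the 27 of these genes that had intronic reads were below 0 with a median of −0.15, while all genes had a median of 0.34. Of the 20 members that passed the filter on low counts there, 1 was called, Col12a1, against 3.19% of the 3349 genes that passed it, 38.1% of which were below 0. The distance between list and all genes was thus −0.50 on all sites, −0.47 on exonic sense sites and −0.49 on intronic sites. The intronic share of all nuclear gene reads was 38.7% and 30.3% in KO against 35.3% and 27.7% in WT. Over the list it was 34.8% and 18.4% in KO against 26.1% and 19.9% in WT, and the groups overlapped. Without Col4a1, a choice made after its values were seen, it was 14.9% and 12.1% in KO against 9.72% and 8.17% in WT. The part of intronic reads in the differences between the groups was not tested.

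Site by site, 152 member sites of 35 genes passed the filter on low counts, 117 of them had a log2 fold change below 0 and the median was −0.53, against 46.5% of all 11112 sites below 0 and a median of 0.10. DESeq2 called 2 member sites, those of Col12a1 and Col6a3, whereas 3.21% of all tested sites were called, 2.33% higher and 0.882% lower in KO. By edgeR 1 member site was called, that of Col12a1, against 0.712% of all sites. Of the exonic sense sites, 106 of 129 were below 0 with a median of −0.61 (all such sites −0.14). Of the intronic sites, 11 of 22 were below 0 with a median of 0.03 (all such sites 0.42). The share that each start site takes of its own gene was tested in 28 members, and 0 were called by the Simes method, against 1.35% of the 2145 genes tested. The smallest adjusted p-values were 0.10 for Col12a1 and 0.16 for Nid1. By the gene-level F test 1 member, Col12a1, was called (adjusted p = 0.028), against 3.31% of all genes.

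Genes that make, anchor or degrade the matrix were also counted. Of 24 genes of collagen processing and cross-linking, 7 were tested, 4 were below 0 with a median of −0.28, and 0 were called. P4hb, a subunit of the enzyme that hydroxylates proline in collagen, had 53.8 and 38.4 in KO against 144 and 99.6 in WT, at −1.40 (SE 0.61, unadjusted p = 0.022, adjusted p = 0.34). This was the lowest log2 fold change of the 7. The highest was that of P4ha1, with 230 and 204 in KO against 257 and 31.1 in WT, at 0.60 (SE 0.73) and with overlapping groups. Of 22 matrix receptors, 9 were tested, 7 were below 0 with a median of −0.53, and 0 were called. Itgb1, the integrin chain shared by the collagen receptors, had 406 and 310 in KO against 631 and 514 in WT, at −0.68 (SE 0.44). Cd44, the receptor for hyaluronan, had 321 and 223 in KO against 467 and 527 in WT, at −0.87 (SE 0.45). The groups of P4hb, Itgb1 and Cd44 did not overlap. In the TGF-β pathway, the main inducer of collagen genes in fibrosis, 10 of 20 listed symbols were tested and 5 were below 0. The median was −0.02 and 0 were called. The symbols Ctgf and Ccn2 on this list name the same gene. Matrix proteases and their inhibitors gave 6 tested genes of 21, of which 4 were below 0 with a median of −0.36. Adamts20, a secreted metalloprotease, was called, with 352 and 320 in KO against 135 and 101 in WT (log2 fold change 1.51, SE 0.48, adjusted p = 0.075). By edgeR its adjusted p was 0.22, and 94.8% of its reads were intronic. These example genes were chosen after their values were seen.

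Among markers of the cells that make matrix, 9 of the 11 genes tested had log2 fold changes below 0. The 1 called gene, Mkx, was higher in KO. Over all genes tested, 49.5% were below 0 and 2.67% were called. Of the 10 fibre markers, 8 were also below 0, with a median of −0.07. Among the 9 genes, Kera was at −0.0002 (SE 0.64). The tenocyte list was not limited to genes that encode no matrix protein, unlike that of fibroblasts. Its 4 tested genes below 0, Kera, Tnc, Cilp and Chad, encode matrix proteins. For fibroblasts, 10 genes that encode no matrix protein were listed and 5 were tested. All 5 were below 0 with a median of −0.63, and 0 were called. Cd34 did not pass the filter on low counts and was higher in KO, at 16.5 and 32.3 against 1.40 and 9.96 in WT. Its log2 fold change was 2.08 (SE 1.27), while Clec3b and Thy1, also not tested, were at −1.56 and −0.68. The summed normalised read count of the 8 genes with a site was 443 and 944 in KO against 864 and 1109 in WT. The groups thus overlapped, and Tcf21 and Osr1 had no site. For tenocytes, 6 of 9 markers were tested, and 4 were below 0, with a median of −0.57 over the 6. Comp was at 0.27 (SE 0.88) with overlapping groups. Mkx was called higher in KO from normalised read counts of 61.7 and 27.1 against 1.40 and 3.74 in WT, all of them intronic reads. Tnmd, which did not pass the filter on low counts, was at 0.10 (SE 1.21). The tenocyte sum was 607 and 327 in KO against 652 and 976 in WT, with no overlap, and Scx and Egr1 had no site. Chad, a cartilage and tendon protein, had 238 and 140 in KO against 367 and 570 in WT, at −1.31 (SE 0.49, adjusted p = 0.19). Of the remaining markers, endothelium had 2 of 5 tested genes below 0, smooth muscle and pericytes 1 of 3, macrophages 2 of 3, adipocytes 3 of 4, Schwann cells 1 of 1 and red blood cells 0 of 1, with 0 called in each. The part of these cell types in the counts of the matrix genes was not tested.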

How the data were processed

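Start sites were counted by WTSS-seq in total RNA of skeletal muscle from 2 KO and 2 WT libraries, grouped by the labels. The authors deposited 1 table of raw read counts for each cluster of read starts (an alternative start site, ASS) in each library, with a gene symbol and a Cuffcompare class code. RNA was depleted of ribosomal RNA, reverse transcribed with template switching, amplified by PCR and sequenced from the 5′ end; reads were not marked with molecular identifiers as far as stated, so PCR copies count as reads, and internal RNA ends can give sites. Mapping and clustering were described for the sister 3′-end libraries only. Coordinates follow build GRCm38.p5 per the labels, and gene spans and promoters come from RefSeq GRCm38.p6, whose primary chromosomes are the same. No site had fewer than 10 reads over the 4 libraries, which admits sites of the deeper KO libraries more readily. The library totals of 1300069 to 2900279 reads make a floor of 3 reads equal to 1.03 to 2.31 ppm.

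Counts were summed per symbol over all sites, antisense sites included. Sites with codes c, e and o were called exonic sense and those with code i intronic. DESeq2 (version 1.42.0, R version 4.3.3) was run on all genes (DE-genes) and all sites (DE-ASSs) with median-of-ratios size factors, independent filtering at its default and adjusted p (Benjamini-Hochberg) under 0.1, after the study's methods. Independent filtering set the mean normalised count needed for testing at 16.5 for genes and 8.76 for sites. Alternatives were edgeR's quasi-likelihood test (edgeR version 4.0.16, limma version 3.58.1), TMM factors, library totals, no independent filtering, a minimum of 10 reads in 2 libraries, an adjusted p under 0.05, a replicate block, leaving out each library and exonic sense sites. Usage within a gene was tested with diffSpliceDGE. The fits were tested on simulated data. An exact permutation test of 2 against 2 libraries cannot give a p under 0.333 and was not used.

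The members, the role and marker lists, and the tests were chosen with earlier results of these data known. Genes named with values were those called, the 25 members with most reads, Col4a3bp and Pdgfra; sites were those called and the most-read site of the 12 members with most reads. Other members, sites and related genes were named after their values were seen, to give ranges or examples. Figures were drawn with matplotlib (version 3.10.9) in Python (version 3.11.15).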

Additional observations from a re-analysis of the deposited data

How the results depend on the processing

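Over all genes, the 125 DE-genes became 54 by edgeR and 56 to 77 when 1 library was left out. The 357 DE-ASSs became 80 by edgeR, 175 without independent filtering, 234 at an adjusted p under 0.05 and 44 to 250 when 1 library was left out. The 29 genes of changed usage became 71 by the F test and 5 to 26 when 1 library was left out.

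Among the members, the DE-gene higher in KO (Col12a1) was lost, leaving 0, by edgeR, without independent filtering, with a minimum of 10 reads in 2 libraries, with TMM factors, with library totals and at an adjusted p under 0.05. The DE-gene lower in KO (Sparc) was lost, leaving 0, by edgeR, without independent filtering and at an adjusted p under 0.05. Leaving out 1 library left 0 member DE-genes in each direction and 0 to 1 member DE-ASSs in each direction. The member DE-ASSs lower in KO were 0 by edgeR and 2 with library totals. Changed usage was called in 1 member by the F test. Col12a1 reversed to −0.59 on exonic sense sites and to −0.41 without its most-read site, an alternative chosen after seeing the data.

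The median log2 fold change of the members was −0.39 to −0.66 when 1 library was left out, with 28 to 29 genes below 0, and −0.67 on exonic sense sites. On intronic sites, also chosen after seeing the data, it was −0.15, with 15 of 27 genes below 0. Of the 25 named members, 16 kept their sign under each of the 13 alternatives tried for single genes, and 9 changed it under at least 1, Col1a1, Col1a2 and Sparcl1 among them. The cause of these shifts was not tested.

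The labels number the libraries 1 and 2 in both groups. How far a library lay from its group's mean correlated between equal numbers at 0.07 over 5821 genes. A correlation over single genes can miss a factor that acts on some of them. The intronic share of nuclear gene reads was 38.7% in KO and 35.3% in WT for replicate 1, and 30.3% and 27.7% for replicate 2. Whether equal numbers mark a shared batch was not tested. With the replicate block, member DE-genes were 0 in each direction, DE-ASSs over all sites were 195 and genes of changed usage 12; the median of the members was −0.50 and 30 were below 0. By edgeR with the replicate block, 1 DE-ASS was called over all sites, and 0 member DE-genes and 0 member DE-ASSs in each direction. With 2 libraries per group and 1300069 reads in the shallowest, 8 detected members were too low to test.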

Other observations

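Several member sites held reads in only 1 genotype and were too low on average to get an adjusted p. They were chosen after their values were seen. An intronic site of Nid1 (chr13:13479735-13479746) had 25 and 14 reads in KO against 0 and 0 in WT, and a site near the 3′ end of Col5a2 (chr1:45375052-45375062) had 8 and 16 reads in KO against 0 and 0 in WT. In the other direction, an intronic site of Col3a1 (chr1:45332304-45332304) had 0 and 0 reads in KO against 20 and 2 in WT, and an exonic site of Col6a3 (chr1:90811801-90811810) had 0 and 0 in KO against 4 and 12 in WT.

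Among the members too low to test, Mgp, the matrix Gla protein that limits calcification, had 13 and 0 reads in KO against 0 and 1 in WT. Lum, the proteoglycan lumican, had 1 and 8 reads in KO against 9 and 5 in WT. Loxl1, an enzyme that cross-links elastin and belongs to the processing genes rather than to the members, had 0 and 0 reads in KO against 6 and 12 in WT. These values rest on too few reads to compare the genotypes.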
